A study of Mus musculus with 16 samples.

Results

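Tetraspanins are small proteins that cross the plasma membrane several times and gather integrins, immunoglobulin-domain proteins, proteases and each other into membrane microdomains. Expression of the family was described across mouse CCE embryonic stem (ES) cells that had differentiated into embryoid bodies after removal of leukemia inhibitory factor. The genes were taken as those whose symbol in the probe annotation is Tspan followed by digits, or Cd9, Cd37, Cd53, Cd63, Cd81, Cd82 or Cd151, and that had a probe set assigned to that symbol alone. This gave 25 of the 18193 genes with such a probe set, covered by 56 of 45037 probe sets. Cd63 and Tspan7 had no such probe set and were not analysed here. Where a gene had several probe sets, the one with the highest mean log2(signal + 6) over all 16 arrays stood for it, so the signal chose between probe sets of a gene but no contrast between populations was used.

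The 16 Affymetrix Mouse Genome 430 2.0 arrays held 8 sorted populations with 2 arrays each. Of the positive populations, cells with VEGF-R2 (VEGF-R2+) were taken at day 2.5, cells with CD41 (CD41+) at day 3.5, and cells with CD144 (CD144+) at both day 3.5 and day 6.5. Each of these 4 had a counterpart from its own day that lacked the marker (VEGF-R2-, CD41-, CD144-). VEGF-R2 is a vascular growth factor receptor that marks early mesoderm, CD41 is an integrin subunit that marks the first blood precursors, and CD144 is the endothelial adhesion protein VE-cadherin. The study treated these populations as the hemangioblast, the hematopoietic precursor, the angioblast and the endothelial cell. All cells came from one ES line, carried no transgene or drug treatment, and were fixed in ethanol and acetic acid before staining. By the study's methods the CD41+ and CD144+ cells were subsets of VEGF-R2+ cells, and the duplicates came from 2 separate experiments. The methods write the CD41- cells as lacking VEGF-R2 too, so the CD41 comparison also divides the cells by VEGF-R2. Kdr, which encodes VEGF-R2, read 1675 and 3335 in CD41+ cells and 53.5 and 95.1 in CD41- cells. The part of VEGF-R2 in that comparison was not tested.

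Transcripts of the sorting markers were in place: Kdr, Itga2b and Cdh5, which encode VEGF-R2, CD41 and CD144, were each higher in the marker-positive cells in all 4 same-day comparisons. The summed signal of 6 blood markers was 90305 to 109743 in CD41+ cells and at most 44985 elsewhere. In CD144+ cells of day 6.5 it was 36431 to 44985, against 37051 to 39332 in the CD144- cells of that day. Hba-x and Hbb-bh1 made up most of this sum, and the other genes did not all follow it. Spi1 was 767 and 642 in the CD144+ cells, against 64.1 and 111, and Ptprc 342 and 166, against 21.8 and 19.5. Of the 6 genes, 3 were called higher and 0 lower in CD144+ cells by the test below (9.42% and 10.1% of all probe sets). The summed signal of 6 endothelial markers was 10588 to 24943 on the arrays of positive cells, against 760 to 2774 on those of negative cells. The summed signal of 5 pluripotency markers was 7109 to 7441 in VEGF-R2+ cells, against 22484 to 22588 in VEGF-R2- cells, and 1287 to 3899.7 in CD41+ cells, against 35798 to 38646 in CD41- cells. It was 21059 to 23770 in CD144+ cells of day 3.5, against 18729 to 20798 in the CD144- cells of that day, and 10286 to 10799 in CD144+ cells of day 6.5, against 18048 to 18099.8 in CD144- cells. At day 3.5 the pluripotency genes did not move together: Nanog was 3103 and 3279 in CD144+ cells, against 9794 and 9577 in CD144- cells. Of the 5 genes, 2 were called higher and 1 lower in these CD144+ cells (9.49% and 10.5% of all probe sets). The 5 endoderm markers summed to 5638 to 6780 in CD144+ cells of day 6.5, against 3107 to 3408 in CD144- cells, and to at most 1992 in every population of the earlier days. Ttr, with 4091 and 5533, made up most of that CD144+ sum. Foxa2 went the other way, with 280 and 222 in CD144+ and 1673 and 2096 in CD144- cells. Of the 5 genes, 2 were called higher and 1 lower in CD144+ cells of day 6.5 (9.42% and 10.1% of all probe sets). Where such markers differed between the cells of a sort, their part in the tetraspanin differences was not tested. No tested probe set had a signal of 0 on any array, so a signal above 0 does not show that a marker was expressed. In CD144- cells of day 3.5, 5 of the 6 endothelial markers lay under the median of all signals on both arrays. On the 8 arrays of positive cells the 9 hybridization controls averaged 5171 to 9079 (geometric mean), against 1830 to 2570.5 on the 8 arrays of negative cells, so every same-day comparison also sets these array sets against each other, and the part of this in the results was not tested. In sorted bulk RNA, fewer cells that express a gene and less RNA per cell cannot be told apart.

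Tetraspanin genes were called higher more often than lower in the sorted vascular and blood populations, set against the cells sorted away from them on the same day. Of the 25 genes, 10 passed as higher in at least 3 of the 4 same-day comparisons, 4 in 1 of them, 4 were lower in at least 1 and 8 passed none. How often all probe sets repeat a call over the sorts was not counted. These counts over several sorts therefore have no background share and are given as description only. The highest population mean lay in 1 of the 4 positive populations for 23 of the 25 genes, against 61.2% of all probe sets. The exceptions were Tspan13 and Tspan17. Tspan18 and Cd151 passed the test as higher in the positive cells in all 4 same-day comparisons, and another 8 genes did so in 3 of the 4. Tspan8 had the widest range, Tspan33 and Tspan32 were highest in CD41+ cells, and 7 genes passed no comparison of 2 populations. All tests were limma's moderated tests on log2(signal + 6.03), with Benjamini-Hochberg adjustment over all 45037 probe sets and a threshold of 0.05. A log2 fold change is positive minus negative cells, or the later or named population minus the other, and its error is the fit's standard error (SE). The moderated F test over the 8 populations passed for 17 of the 25 genes, against 44.1% of all probe sets.

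**Figure D1:**
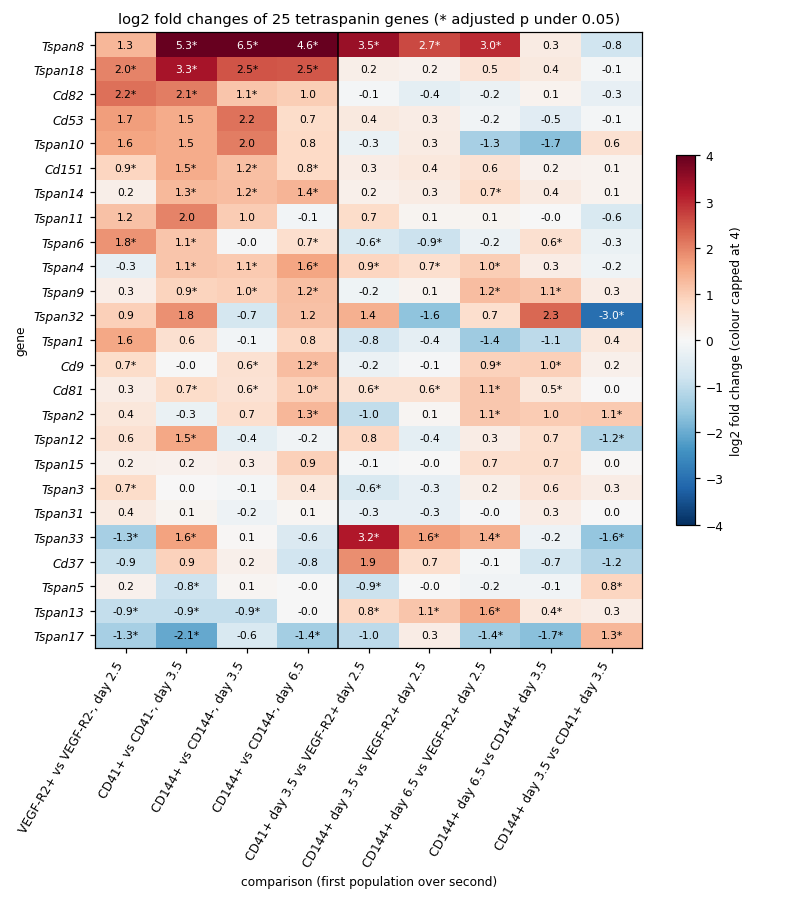
Log2 fold changes of the 25 tetraspanin genes (rows, ordered by their mean over the first 4 columns) in 9 comparisons (columns, first population over second), with an asterisk where the adjusted p was under 0.05. The same-day comparisons left of the line are mostly red, with Tspan8 and Tspan18 at the top and Tspan13 and Tspan17 at the bottom.

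By comparison, CD41+ against CD41- cells gave the most calls. In that comparison 11 tetraspanin genes were higher and 3 lower, where 13.5% of all probe sets were higher and 15.8% lower, and the median log2 fold change was 1.10 for the 25 genes and 0.10 for all probe sets. In CD144+ against CD144- cells at day 3.5, 9 were higher and 1 lower (9.49% and 10.5% of all probe sets), with medians of 0.57 and 0.10. In CD144+ against CD144- cells at day 6.5, 10 were higher and 1 lower (9.42% and 10.1%), with medians of 0.79 and 0.07. In VEGF-R2+ against VEGF-R2- cells at day 2.5, 6 were higher and 3 lower (11.1% and 13.8%), with medians of 0.62 and 0.08. The share of genes called higher was thus above the share of all probe sets in each of the 4. The share called lower was 12% in the VEGF-R2 and CD41 sorts, close to that of all probe sets, and the counts of lower genes are too small to read. The shares are not fully alike: each gene stands by its brightest probe set. All probe sets include dim ones and 9160 without a gene symbol.

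Between positive populations fewer genes passed. CD41+ cells of day 3.5 had 5 genes higher and 3 lower than VEGF-R2+ cells of day 2.5 (5.02% and 4.82% of all probe sets). CD144+ cells of day 3.5 had 5 higher and 1 lower than VEGF-R2+ cells (4.87% and 2.84%), and CD144+ cells of day 6.5 had 9 higher and 1 lower (9.40% and 6.11%). These 3 comparisons share the VEGF-R2+ arrays. CD144+ cells of day 6.5 had 5 genes higher and 1 lower than CD144+ cells of day 3.5 (3.20% and 2.64%), and CD144+ cells of day 3.5 had 3 higher and 3 lower than CD41+ cells (6.06% and 3.72%). The last 2 counts depended on single arrays: no call was left between the CD144+ populations without replicate 2 of day 3.5 and 1 without replicate 1 of day 6.5, and 1 was left between CD144+ and CD41+ cells without CD144+ replicate 2 or without CD41+ replicate 1.

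The sort difference, the log2 fold change of positive over negative cells, was also compared between sorts. Larger and smaller are by sign, so a negative difference that came near 0 counts as larger. Tspan33 (-1.32 in the VEGF-R2 sort) was such a gene in the CD144 sort of day 3.5. Tspan13 (-0.94 in the VEGF-R2 sort and in the CD144 sort of day 3.5) was another in the CD144 sort of day 6.5. Against the VEGF-R2 sort of day 2.5 the sort difference was larger for 5 genes and smaller for 0 in the CD41 sort (2.33% and 2.4% of all probe sets). It was larger for 4 and smaller for 2 in the CD144 sort of day 3.5 (3.1% and 2.2%). In the CD144 sort of day 6.5 it was larger for 5 and smaller for 1 (2.8% and 2.05%). By limma, 12 genes of the CD41 comparison had an unadjusted p under 0.05 in either direction. Between the CD144 sorts of day 6.5 and day 3.5 the sort difference was larger for 1 gene and smaller for 0 (0.364% and 0.426%), with 7 genes at an unadjusted p under 0.05. The share of all probe sets at the unadjusted threshold was not counted. The 12 and the 7 therefore cannot be set against the shares given here, which are for adjusted p.

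Tspan8, Tspan32 and Tspan33 had their highest population mean in CD41+ cells, as did Cd37, Cd53, Tspan11 and Tspan12. The chosen probe sets of Cd37, Cd53 and Tspan11 did not pass the F test (adjusted p = 0.61, 0.24 and 0.66), so their highest population is not settled. The share of all probe sets that were highest in CD41+ cells was not counted. Tspan8 is best known as a cell surface protein of migrating and tumour cells that enters extracellular vesicles, Tspan32 is a tetraspanin of hematopoietic cells, and Tspan33 is required for normal red cell formation in mice. The promoters of Tspan8, Tspan32 and Tspan33 are shown because these genes passed with an absolute log2 fold change of 2 or more between CD41+ cells and another positive population. In CD41+ cells Gata1, which encodes an erythroid transcription factor, was also higher than in CD41- cells (log2 fold change 5.85, SE 0.30). A link between Gata1 and these genes was not tested. Each promoter is the 250 bases before the start used in a table of RefSeq promoters on GRCm38.p6, plus strand, 5′ to 3′, and capitals mark GATA preceded by A or T and followed by A or G, on either strand, the letters that GATA factors recognise. They lie at chr10:115817034-115817283 for Tspan8, chr7:143004796-143005045 for Tspan32 and chr6:29693964-29694213 for Tspan33. The annotated gene starts at 115816817 for Tspan8, before this window, at 143004907 for Tspan32, inside it, and directly after it for Tspan33.
Tspan8: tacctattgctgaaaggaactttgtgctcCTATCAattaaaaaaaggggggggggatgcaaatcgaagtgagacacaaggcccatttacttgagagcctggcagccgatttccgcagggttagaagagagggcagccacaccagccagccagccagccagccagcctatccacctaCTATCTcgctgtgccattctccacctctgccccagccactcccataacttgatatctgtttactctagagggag
Tspan32: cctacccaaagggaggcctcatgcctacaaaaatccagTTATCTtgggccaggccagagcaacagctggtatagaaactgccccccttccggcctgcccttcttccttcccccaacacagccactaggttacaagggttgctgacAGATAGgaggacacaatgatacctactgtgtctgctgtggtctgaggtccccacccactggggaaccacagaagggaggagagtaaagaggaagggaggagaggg
Tspan33: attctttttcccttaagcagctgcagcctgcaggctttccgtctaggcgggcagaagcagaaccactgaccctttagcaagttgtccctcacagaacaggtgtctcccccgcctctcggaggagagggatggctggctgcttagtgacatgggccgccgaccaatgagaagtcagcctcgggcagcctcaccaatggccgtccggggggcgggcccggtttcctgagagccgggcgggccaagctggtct
Tspan8 and Tspan32 each held 2 matches and Tspan33 none in this window. Over the family, 24 of 25 genes had a promoter in the RefSeq table, and 8 of these 34 promoters held a match, against 26.5% of 32851 promoters of the same length. That share is close to the background.

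Tspan8 was bright in the later positive populations and dim in every negative one. Its signals were 89.8 and 196 in VEGF-R2+ cells of day 2.5, 1195 and 1923 in CD41+ cells, 1058 and 713 in CD144+ cells of day 3.5, and 1099.8 and 1073 in CD144+ cells of day 6.5. The negative cells had 49.3 and 50.5 at day 2.5, 23.0 and 45.4 (CD41-) and 0.828 and 7.98 (CD144-) at day 3.5, and 23.2 and 59.7 at day 6.5. Positive and negative arrays did not overlap on any day. The log2 fold change was 5.30 (SE 0.49, adjusted p = 4.5e-07) in CD41+ against CD41- cells, 6.48 (SE 0.49, adjusted p = 1.9e-07) in CD144+ against CD144- cells at day 3.5, and 4.64 (SE 0.49, adjusted p = 5.4e-06) at day 6.5. The day 3.5 value rests on signals near the offset and was 4.08 with an offset of 50. Against VEGF-R2+ cells, Tspan8 was higher by 3.45 in CD41+ cells, by 2.65 in CD144+ cells of day 3.5 and by 2.97 in CD144+ cells of day 6.5 (SE 0.49 each). The 4 other probe sets of the gene also read higher in the positive cells of every sort, but passed no comparison between positive populations, and with the mean over all 5 probe sets the increases over VEGF-R2+ cells were 1.05, 0.83 and 0.76 (adjusted p = 0.26, 0.40 and 0.40). The differences from the negative cells then stayed past the threshold at 2.59, 3.21 and 2.31.

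Tspan33 had its lowest population mean in VEGF-R2+ cells and its highest in CD41+ cells. Its signals were 157 and 141 in VEGF-R2+ cells, 1728 and 1163 in CD41+ cells, 606 and 374 in CD144+ cells of day 3.5, and 398 and 423 in CD144+ cells of day 6.5. Among the negative cells these were 386 and 377 at day 2.5, 422 and 505 (CD41-) and 472 and 446 (CD144-) at day 3.5, and 479 and 807 at day 6.5. Only the 2 CD41+ arrays stood above all negative arrays. Tspan33 was lower in VEGF-R2+ than in VEGF-R2- cells (log2 fold change -1.32, SE 0.27, adjusted p = 0.0014) and higher in CD41+ than in CD41- cells (1.61, SE 0.27, adjusted p = 0.00018). It was 3.20 higher in CD41+ than in VEGF-R2+ cells (SE 0.27, adjusted p = 6.1e-07), and 1.56 lower in CD144+ cells of day 3.5 than in CD41+ cells on the log2 scale (-1.56, SE 0.27, adjusted p = 0.00088). The chosen probe set is of a kind (its name ends in x_at) whose probes can match related transcripts. Its 3 companions gave log2 fold changes of 1.74, 1.98 and 2.77 for CD41+ against CD41- cells and of 2.80, 2.04 and 3.43 for CD41+ against VEGF-R2+ cells. The lower level in VEGF-R2+ than in VEGF-R2- cells was -0.84 with the mean of the 4 probe sets (adjusted p = 0.16).

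**Figure D2:**
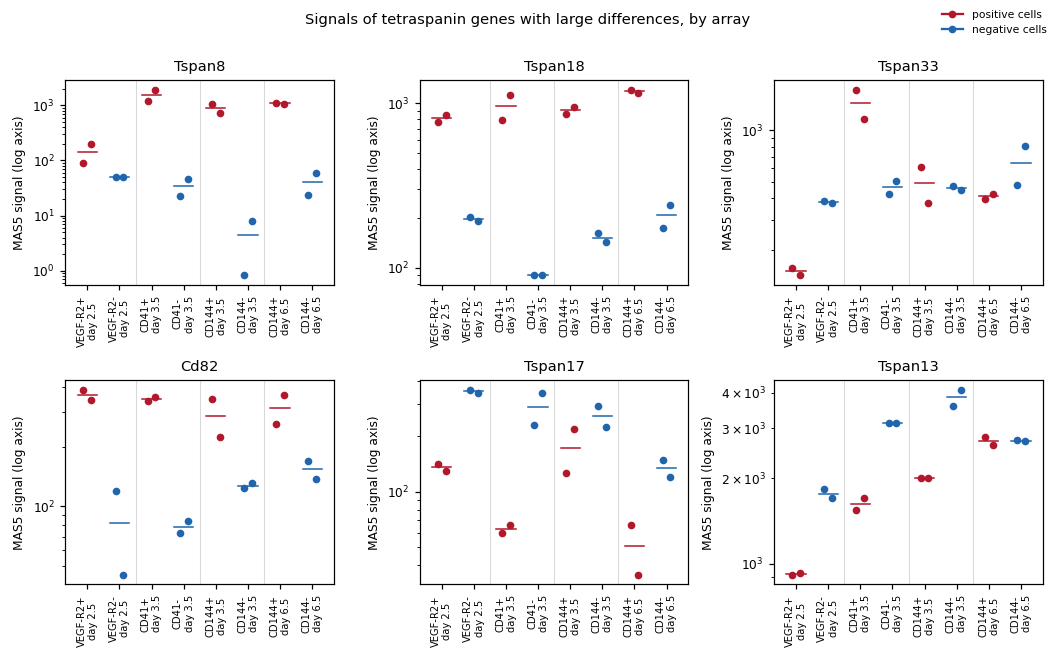
MAS5 signal (log axis) on each array for 6 tetraspanin genes in the 8 populations, with positive cells left of the negative cells of their day, points for the 2 arrays and a bar for their mean. Tspan8 and Tspan18 are higher on every positive array than on the negative arrays of the same day, Tspan33 peaks in CD41+ cells, and Tspan17 and Tspan13 are lower in most positive populations.

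Tspan32, Cd37 and Cd53 are the family's leukocyte members, Cd37 known from B cells and Cd53 from most white blood cells. With the probe sets chosen by highest mean signal, these 3 genes gave 1 call in 9 comparisons, Tspan32 lower in CD144+ than in CD41+ cells at day 3.5. The chosen Tspan32 probe set read 169 and 179 in VEGF-R2+ cells, 212 and 373 in CD144+ cells of day 6.5, and 46.3 to 178 on the 8 negative arrays. Tspan32 had 147 and 16.7 in CD144+ cells of day 3.5 and 509 and 438 in the CD41+ cells (log2 fold change -3.02, SE 0.69, adjusted p = 0.0093), and without the dim CD144+ replicate 2 the value was -1.64 (adjusted p = 0.15), without CD41+ replicate 1 it was -2.91 (adjusted p = 0.073). The other probe sets of Tspan32 and Cd37, described after their values were seen, gave a sharper picture. The second Tspan32 probe set read 41.6 and 5.86 in VEGF-R2+ cells, 3113 and 2119.6 in CD41+ cells, 104 and 114 in CD144+ cells of day 3.5 and 389 and 383 in CD144+ cells of day 6.5. The negative cells read 29.9 and 19.6 at day 2.5, 4.93 and 3.89 (CD41-) and 19.8 and 12.4 (CD144-) at day 3.5, and 72.7 and 37.3 at day 6.5. The CD41+ arrays lay far above all 14 others. The log2 fold change was 7.95 in CD41+ against CD41- cells (SE 0.60, adjusted p = 4e-08), 6.76 in CD41+ against VEGF-R2+ cells (adjusted p = 1.3e-06) and -4.48 in CD144+ cells of day 3.5 against CD41+ cells (adjusted p = 0.0001). In CD144+ against CD144- cells it was 2.40 at day 3.5 (adjusted p = 0.0088) and 2.74 at day 6.5 (adjusted p = 0.0035).

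Cd37 behaved likewise. Its second probe set read 115 and 119.6 in CD41+ cells and between 4.24 and 23.7 on the other 14 arrays, with log2 fold changes of 3.32 against CD41- cells (SE 0.64, adjusted p = 0.00072) and 3.26 against VEGF-R2+ cells (adjusted p = 0.0029). The chosen one read 99.4 and 54.7 in CD41+ cells, against 63.5 and 19.7 in CD41- cells, and passed no comparison. Cd53 stayed dim on both of its probe sets, with 109 and 47.4 in CD41+ cells and 21.1 and 23.4 in CD41- cells on the chosen one (log2 fold change 1.47, SE 0.93, adjusted p = 0.26). The sum of the blood markers was highest in CD41+ cells, as were Tspan32, Cd37 and Tspan33. At day 6.5 the sum was 36431 to 44985 in CD144+ and 37051 to 39332 in CD144- cells. There the second Tspan32 probe set read 389 and 383 against 72.7 and 37.3, and Tspan33 398 and 423 against 479 and 807. The second Cd37 probe set read 17.1 and 13.4 against 11.5 and 11.4. The part of the blood markers in these values was not tested.

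**Figure D3:**
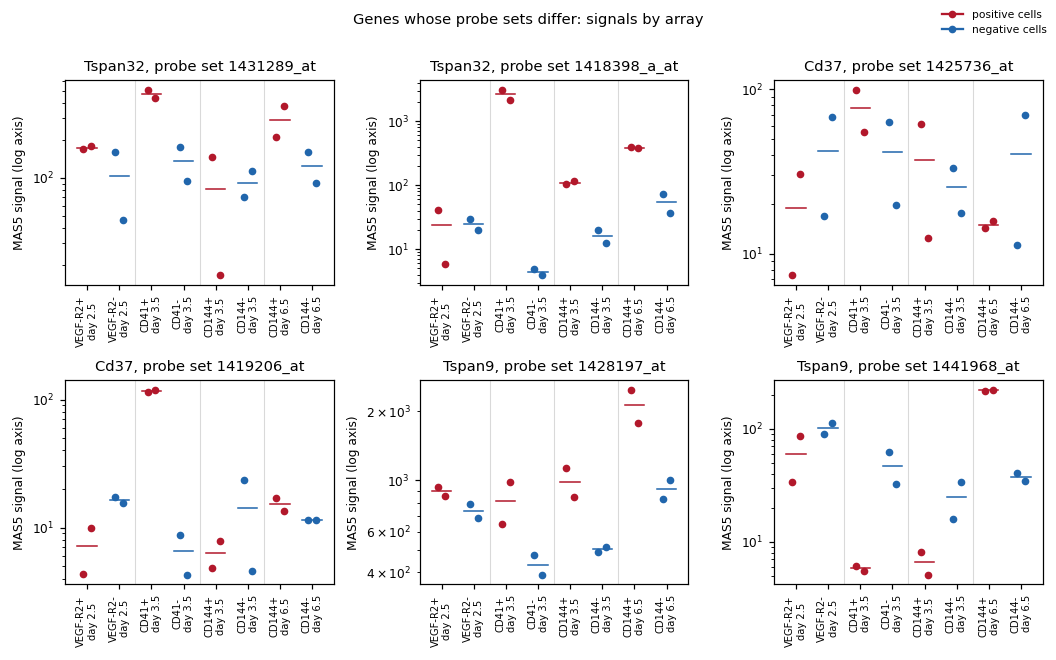
MAS5 signal (log axis) on each array for pairs of probe sets of Tspan32, Cd37 and Tspan9, the first of each pair being the one with the higher mean, with positive cells left of the negative cells of their day and bars at the means. The second probe sets of Tspan32 and Cd37 separate the CD41+ arrays from the rest, and the second of Tspan9 separates CD144+ cells of day 6.5.

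Tspan18 had the highest F value of the family and passed as higher in all 4 sorts. This tetraspanin binds the calcium channel Orai1 in endothelial cells. Its signals were 771 and 845 in VEGF-R2+ cells, 793 and 1117 in CD41+ cells, 860.1 and 945 in CD144+ cells of day 3.5 and 1208 and 1153 in CD144+ cells of day 6.5. In the negative cells the signals were 205 and 192 at day 2.5, 90.0 and 90.6 (CD41-) and 162 and 143 (CD144-) at day 3.5, and 176 and 242 at day 6.5. Every positive array lay above every negative one. The log2 fold changes in the order of these days were 1.99 (adjusted p = 5.4e-06), 3.30 (7.6e-09), 2.52 (6.9e-07) and 2.48 (6.7e-07), each with SE 0.22. All 4 kept their direction and stayed past the threshold under every alternative setting tried, and both other probe sets passed in the same direction in all 4. Between positive populations the chosen probe set passed no comparison, while another of its probe sets read 1547 and 2188 in CD144+ cells of day 6.5 against 527 and 452 at day 3.5 (log2 fold change 1.90, SE 0.30, adjusted p = 0.0012). Orai1 was higher in CD41+ than in CD41- cells (1.34, SE 0.20) and in CD144+ than in CD144- cells of day 6.5 (1.22, SE 0.20).

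Cd82 lies next to Tspan18 on chromosome 2 in RefSeq (GRCm38.p6), with no protein-coding gene between them, and is known as a suppressor of metastasis. Its signals were 388 and 343 in VEGF-R2+ cells, 341 and 354 in CD41+ cells, 346 and 223 in CD144+ cells of day 3.5 and 261 and 366 in CD144+ cells of day 6.5. The negative cells had 119.7 and 44.8 at day 2.5, 73.3 and 84.2 (CD41-) and 124 and 130.2 (CD144-) at day 3.5, and 170.1 and 138 at day 6.5. All positive arrays again lay above all negative arrays. The log2 fold change was 2.21 in VEGF-R2+ against VEGF-R2- cells (SE 0.37, adjusted p = 0.00034) and 2.06 in CD41+ against CD41- cells (adjusted p = 0.00043). In CD144+ against CD144- cells of day 3.5 it was 1.09 (adjusted p = 0.049), a call that was lost without any 1 of the 4 arrays compared (0.79 to 1.40). Its second probe set read 679.9 and 600.1 in CD144+ cells of day 6.5, against 184 and 251 in CD144+ cells of day 3.5 (log2 fold change 1.54, SE 0.35, adjusted p = 0.016), where the chosen one gave no call.

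The widely expressed members Cd81, Cd9 and Cd151 were bright on every array and differed by smaller amounts. Cd81, part of the B cell co-receptor, lies beside Tspan32 on chromosome 7 with no protein-coding gene between them. Its signals were 5029.7 and 5613 in VEGF-R2+ cells, 7809.7 and 8294 in CD41+ cells, 8268 and 8021 in CD144+ cells of day 3.5 and 12680.2 and 10013 in CD144+ cells of day 6.5. Among the negative cells these were 4289 and 4351 at day 2.5, 4704 and 5009 (CD41-) and 5510.3 and 5483 (CD144-) at day 3.5, and 5854 and 5697 at day 6.5. Positive arrays lay above the negative arrays of their day throughout. This gave a log2 fold change of 0.30 in VEGF-R2+ cells (SE 0.13, not past the threshold), 0.73 in CD41+ cells (adjusted p = 0.00029), 0.57 in CD144+ cells of day 3.5 (adjusted p = 0.0040) and 0.96 in CD144+ cells of day 6.5 (adjusted p = 4.4e-05). Among positive cells Cd81 was 1.08 higher in CD144+ cells of day 6.5 than in VEGF-R2+ cells of day 2.5 (SE 0.13, adjusted p = 1.9e-05).

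Cd9, needed for sperm-egg fusion and a partner of Igsf8 and Ptgfrn, was highest in CD144+ cells of day 6.5. Its signals were 3169 and 3685 in VEGF-R2+ cells, 2746 and 3023 in CD41+ cells, 4086 and 2650.4 in CD144+ cells of day 3.5 and 6609 and 6222 in CD144+ cells of day 6.5. In the negative cells the signals were 2059 and 2078 at day 2.5, 2695 and 3109.8 (CD41-) and 2031 and 2302 (CD144-) at day 3.5, and 3268 and 2239.5 at day 6.5. The CD41+ and CD41- arrays overlapped, and those of the other 3 sorts did not. The log2 fold change was 1.24 in CD144+ against CD144- cells of day 6.5 (SE 0.19, adjusted p = 0.00019) and -0.01 in CD41+ against CD41- cells (adjusted p = 0.98, 95% interval -0.41 to 0.40). The smaller differences in VEGF-R2+ cells (0.72, adjusted p = 0.010) and CD144+ cells of day 3.5 (0.60, adjusted p = 0.034) were lost when single arrays were left out. Without VEGF-R2+ replicate 2 or either VEGF-R2- array the first was 0.61 to 0.73, and without CD144+ replicate 1 or either CD144- array the second was 0.29 to 0.69.

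Cd151, the tetraspanin that binds laminin-receptor integrins, was higher in the positive cells of all 4 sorts. Its signals were 3451 and 4680.4 in VEGF-R2+ cells, 4265 and 5615 in CD41+ cells, 4875 and 5933 in CD144+ cells of day 3.5 and 5296 and 6792 in CD144+ cells of day 6.5. The negative cells had 2278 and 2147 at day 2.5, 1789.5 and 1669 (CD41-) and 2189 and 2505 (CD144-) at day 3.5, and 2805 and 4314 at day 6.5. No sort had overlapping arrays. This gave a log2 fold change of 1.50 in CD41+ against CD41- cells (SE 0.20, adjusted p = 2.7e-05), which held under every alternative, and 1.20 in CD144+ against CD144- cells of day 3.5 (adjusted p = 0.00046), where the mean of all 6 probe sets gave 0.63 (adjusted p = 0.061). It was 0.86 in VEGF-R2+ cells (adjusted p = 0.0049) and 0.78 in CD144+ cells of day 6.5 (adjusted p = 0.011). With the mean of all 6 probe sets these 2 calls were lost as well. The name of the chosen probe set ends in x_at, as for Tspan33. Without VEGF-R2+ replicate 2 the day 2.5 value was 0.64 (adjusted p = 0.084), and the day 6.5 value was 0.61 without CD144+ replicate 2 and 0.47 without CD144- replicate 1.

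**Figure D4:**
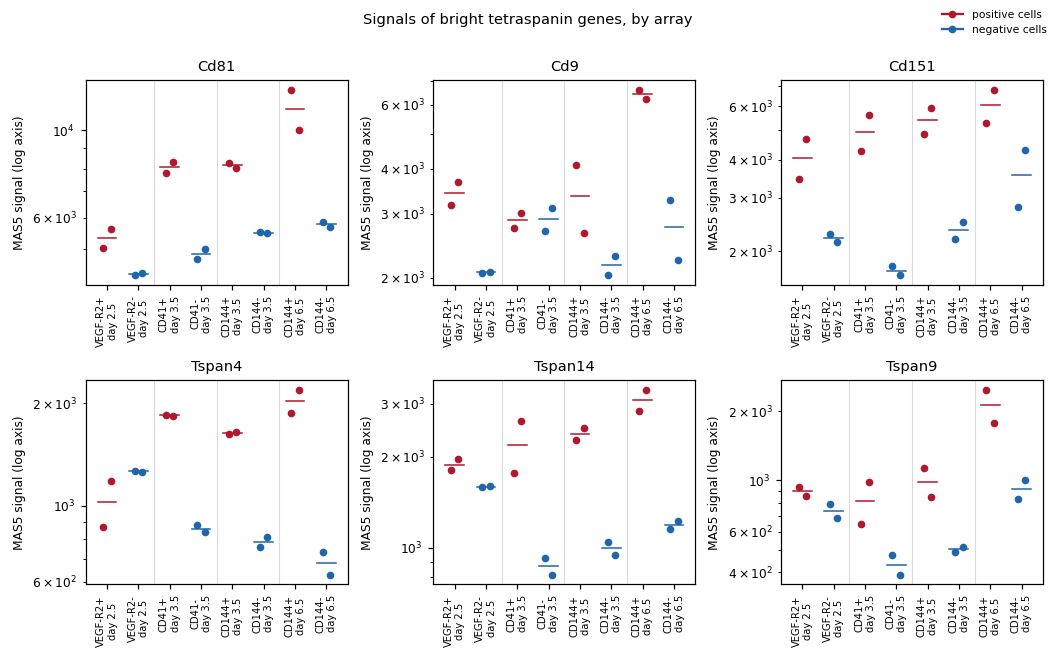
MAS5 signal (log axis) on each array for Cd81, Cd9, Cd151, Tspan4, Tspan14 and Tspan9 in the 8 populations, with positive cells left of the negative cells of their day, points for the 2 arrays and a bar for their mean. Cd81 and Cd151 are higher on positive arrays on every day, and Cd9, Tspan4, Tspan14 and Tspan9 have their highest mean in CD144+ cells of day 6.5.

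Tspan4, Tspan14 and Tspan9 did not pass at day 2.5 and were higher in all 3 later sorts. Tspan4, which gathers in the membrane of migrasomes, lies near Cd151 on chromosome 7 with 1 protein-coding gene between them. It had 867 and 1187 in VEGF-R2+ cells and 1269.6 and 1256 in VEGF-R2- cells, but 1875 and 2196 in CD144+ cells of day 6.5, against 731 and 627 in the CD144- cells of that day. Its log2 fold change was 1.10 in CD41+ cells (SE 0.16, adjusted p = 4.6e-05), 1.06 in CD144+ cells of day 3.5 and 1.58 in CD144+ cells of day 6.5 (adjusted p = 2.9e-06), all kept under every alternative. The sort difference itself was larger at these later sorts than at day 2.5, by 1.41, 1.37 and 1.89 (SE 0.22 each, adjusted p = 0.00091, 0.00098 and 7.1e-05). Tspan14, a partner of the protease ADAM10, had log2 fold changes of 1.31, 1.25 and 1.37 in the same 3 sorts (SE 0.17 each), also kept under every alternative. Tspan9, a platelet tetraspanin, had 0.89, 0.95 and 1.20 (SE 0.22 each). The first was 0.59 without CD41+ replicate 2 and 0.75 without CD41- replicate 2, and the second 0.75 without CD144+ replicate 1, none of them past the threshold. Its second probe set disagreed: it was lower in CD41+ than in CD41- cells (6.10 and 5.50 against 61.9 and 32.6, log2 fold change -2.11, adjusted p = 0.017) and higher in CD144+ than in CD144- cells of day 6.5 (217 and 223 against 40.8 and 34.1, log2 fold change 2.38, adjusted p = 0.012). With the mean of both probe sets the values were -0.61 in CD41+ cells and -0.15 in CD144+ cells of day 3.5.

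Tspan6 and Tspan3 differed most at day 2.5. Tspan6 had 4145 and 3615 in VEGF-R2+ cells, against 1095 and 1107 in VEGF-R2- cells (log2 fold change 1.81, SE 0.18, adjusted p = 2.2e-06), and 2398 and 1904 in CD144+ cells of day 3.5, against 2128 and 2274 in the CD144- cells of that day. The CD144+ and CD144- arrays of day 3.5 overlapped (log2 fold change -0.04), and the sort difference there differed from that at day 2.5 by -1.85 (SE 0.25, adjusted p = 0.00019). In CD41+ against CD41- cells Tspan6 was higher by 1.10 (SE 0.18, adjusted p = 0.00016). Tspan3 was higher in VEGF-R2+ than in VEGF-R2- cells by 0.73 (SE 0.16, adjusted p = 0.0031) and passed no other sort.

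With their chosen probe sets, Tspan13 and Tspan17 were each lower in the positive cells of 3 sorts and higher in none. Tspan13 had 911 and 926 in VEGF-R2+ cells, 1544 and 1697 in CD41+ cells, 1998 and 1997 in CD144+ cells of day 3.5 and 2795 and 2617 in CD144+ cells of day 6.5. Among the negative cells these were 1828 and 1704 at day 2.5, 3125 and 3131 (CD41-) and 3601 and 4101 (CD144-) at day 3.5, and 2718 and 2706 at day 6.5. The positive cells were lower in the first 3 sorts, and the groups overlapped at day 6.5. The second Tspan13 probe set also read lower in the positive cells of the first 3 sorts. At day 6.5 it read 2428 and 2427 in CD144+ cells, above the 1709 and 1283 in CD144- cells. The values that follow are from the chosen probe set. The log2 fold change was -0.94, -0.95 and -0.94 in the first 3 sorts (SE 0.12 each, adjusted p = 2.8e-05, 1.4e-05 and 4.0e-05) and 0.00 at day 6.5. Within the positive cells Tspan13 was higher than in VEGF-R2+ cells by 0.81 in CD41+ cells, 1.12 in CD144+ cells of day 3.5 and 1.55 in CD144+ cells of day 6.5 (SE 0.12 each), all kept under every alternative.

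Tspan17 belongs to the TspanC8 group, which escorts ADAM10 to the cell surface. Its signals were 142 and 130.1 in VEGF-R2+ cells, 60.1 and 66.3 in CD41+ cells, 127 and 219 in CD144+ cells of day 3.5 and 66.3 and 35.3 in CD144+ cells of day 6.5. In the negative cells the signals were 359 and 344 at day 2.5, 230.4 and 343 (CD41-) and 292 and 224 (CD144-) at day 3.5, and 149 and 121 at day 6.5. On this chosen probe set, the positive arrays of each sort lay below its negative arrays. The second probe set differed: it read 212 and 210 in CD144+ cells of day 3.5, against 192 and 182 in CD144- cells. At day 6.5 its groups overlapped, with 40.8 and 110 in CD144+ and 94.1 and 138 in CD144- cells. The chosen probe set gave a log2 fold change of -2.06 in CD41+ against CD41- cells (SE 0.37, adjusted p = 0.00041), kept under every alternative. It was -1.33 in VEGF-R2+ cells (adjusted p = 0.014) and -1.36 in CD144+ cells of day 6.5 (adjusted p = 0.015). Leaving out VEGF-R2+ replicate 2 or either VEGF-R2- array ended the first call (-1.27 to -1.36), while CD144+ replicate 2 or CD144- replicate 1 of day 6.5 ended the second (-0.95 and -1.22). Quantile normalization and the mean over the probe sets of the gene also ended the first call.

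The TspanC8 group as a whole was divided. Of its 6 genes, Tspan14 and Tspan33 were higher and Tspan5 and Tspan17 lower in CD41+ than in CD41- cells, and Tspan10 and Tspan15 passed no comparison. The call for Tspan5 (-0.84, SE 0.23, adjusted p = 0.011) was lost without CD41+ replicate 1 (-0.40, adjusted p = 0.19) or CD41- replicate 1 (-0.69, adjusted p = 0.11), but its second probe set passed in the same direction (-2.29, adjusted p = 0.003). Adam10, the protease they share, was higher in the positive cells of all 4 sorts, by 0.64 at day 2.5, 1.45 in CD41+ cells, 0.60 in CD144+ cells of day 3.5 and 0.44 in CD144+ cells of day 6.5 (SE 0.14 each). Adam17, a related protease outside this group, was lower in VEGF-R2+ than in VEGF-R2- cells (-0.60) and passed no other sort.

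Among the remaining genes, Tspan12, which acts with Frizzled-4 in Norrin signalling, was higher in CD41+ than in CD41- cells (419 and 291 against 103 and 132, log2 fold change 1.54, SE 0.29, adjusted p = 0.00062). Tspan2, known from oligodendrocytes, was higher in CD144+ than in CD144- cells of day 6.5 (985 and 771 against 522 and 226, log2 fold change 1.33, SE 0.31, adjusted p = 0.0052), and that call was lost without CD144+ replicate 1 (1.15) or CD144- replicate 2 (0.73). Tspan31 was bright and even, with population means that differed by at most 1.36 times. Tspan1, Tspan10, Tspan11, Cd37 and Cd53 lay under the median of all signals, 85.8, on 13 to 15 of the 16 arrays, and no comparison passed for their chosen probe sets. For Tspan10 in CD144+ against CD144- cells of day 3.5 the log2 fold change was 2.04 with SE 0.79 (adjusted p = 0.084, 95% interval 0.36 to 3.72).

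Known partners of the family were also counted. Of 8 integrin genes, 3 were higher and 4 lower in CD41+ than in CD41- cells, where 13.5% of all probe sets were higher and 15.8% lower, and Itgb3, the partner of CD41 itself, had the largest log2 fold change at 6.52 (SE 0.65), followed by Itga4 at 3.24 (SE 0.40). Itga3 and Itga6, the laminin-receptor subunits that Cd151 binds, were both lower in CD41+ than in CD41- cells (-2.46 and -1.78) while Cd151 was higher. Of 10 measured membrane partners, 4 were higher and 2 lower in that comparison, with Adgrg1 at 4.55 (SE 0.50), Cd44 at 3.03 (SE 0.22), Ptgfrn at -2.32 (SE 0.27) and Epcam at -3.77 (SE 0.42). Ptgfrn, the partner of Cd9 and Cd81, fell there while Cd9 did not pass and Cd81 rose. Of 7 multivesicular body genes, which serve the vesicles that carry tetraspanins, 2 were higher and 2 lower in CD41+ cells, and Vps4b was lower in the positive cells of all 4 sorts (-0.54 to -1.09). The tetraspanins of bladder and retina, Upk1a, Upk1b, Prph2 and Rom1, passed none of the 9 comparisons.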

How the data were processed

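Expression was measured in 16 RNA samples from sorted mouse ES cell populations on Affymetrix Mouse Genome 430 2.0 arrays. The authors deposited MAS5 signals, a linear intensity per probe set, in which the mean of each array after trimming at the 2nd and 98th percentiles was 500. The MAS5 version is not given in the sources used here. The study's methods describe dChip values, which were not used here. No depth applies to array signals, and 2 arrays per population limit the precision.

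After 64 control probe sets were left out, log2(signal + 6.03), the offset being the 10th percentile of all values, was fitted for 45037 probe sets with limma 3.58.1 in R 4.3.3 (lmFit, eBayes with a trend). All 16 arrays entered one fit with a term for each population. There were 9 comparisons of 2 populations, 4 differences between same-day comparisons and a moderated F test, each adjusted by Benjamini-Hochberg over all probe sets at a threshold of 0.05. The code was tested on simulated data. GEO's platform annotation gave 1 gene symbol to 34945 probe sets, several to 932 and none to 9160. Promoters came from RefSeq, GRCm38.p6. Values on each array are given for genes called with an absolute log2 fold change of 2 or more and for Cd9, Cd81 and Cd151, and others by their fold changes. Array values of Tspan2, Tspan4, Tspan6, Tspan12, Tspan13, Cd37, Cd53 and some second probe sets were added after their values were seen. The members, partner lists and markers were chosen with earlier results of these data known. Alternatives changed the normalization, offset, dim filter, variance prior, replicate block, probe set summary and arrays in the fit. Figures were drawn with matplotlib 3.10.9.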

Additional observations from a re-analysis of the deposited data

Results flagged for a closer look

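Several tetraspanin genes were singled out because the difference between positive and negative cells was not the same size in 2 sorts, by limma's test of the difference itself with adjusted p under 0.05. The tests against the VEGF-R2 sort share the arrays of day 2.5, and all count only what 2 arrays per population can show. In the comparison of the CD41 sort with the VEGF-R2 sort, 5 genes passed in the direction of a larger log2 difference in the CD41 sort and none in the other. Tspan8 differed by 3.99 (SE 0.70), Tspan33 by 2.93 (SE 0.38), Tspan4 by 1.41 (SE 0.22), Tspan18 by 1.30 (SE 0.31) and Tspan14 by 1.06 (SE 0.23). Tspan4 and Tspan33 kept this under every alternative. Tspan18 lost it under 8 alternatives, Tspan14 under 4 and Tspan8 under 1.

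In the comparison of the CD144 sort of day 3.5 with the VEGF-R2 sort, 4 genes differed upward and 2 downward. For Tspan33, upward means that its difference of -1.32 in the VEGF-R2 sort was not seen at day 3.5. Its population means there were 490 in CD144+ and 459 in CD144- cells. Tspan8 differed by 5.17 (SE 0.70), Tspan33 by 1.37 (SE 0.38), Tspan4 by 1.37 (SE 0.22) and Tspan14 by 1.003 (SE 0.23), and Tspan6 by -1.85 (SE 0.25) and Tspan3 by -0.82 (SE 0.23). Tspan4 and Tspan6 kept this under every alternative, and Tspan8 did under all except the mean of its probe sets (1.66, adjusted p = 0.26). Tspan33 lost it under 11 alternatives, Tspan3 under 9 and Tspan14 under 6.

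In the comparison of the CD144 sort of day 6.5 with the VEGF-R2 sort, 5 genes differed upward and 1 downward. For Tspan13, upward means that its difference of -0.94 in the VEGF-R2 sort and in the CD144 sort of day 3.5 was not seen at day 6.5. Its population means there were 2706 in CD144+ and 2712 in CD144- cells. Tspan8 differed by 3.32 (SE 0.70), Tspan4 by 1.89 (SE 0.22), Tspan14 by 1.13 (SE 0.23), Tspan13 by 0.93 (SE 0.17), Cd81 by 0.67 (SE 0.18) and Tspan6 by -1.14 (SE 0.25). Tspan4 alone kept this under every alternative. Cd81 lost it under 9 alternatives, Tspan6 under 5, Tspan8 under 2, and Tspan13 and Tspan14 under 1 each. Between the CD144 sorts of day 6.5 and day 3.5 only Tspan13 passed (0.94, SE 0.17), and it was lost without replicate 2 of the CD144+ or CD144- cells of day 3.5 or replicate 1 of the CD144+ cells of day 6.5 (0.94, 0.84 and 0.89).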

How the results depend on the processing

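Of 98 calls of single tetraspanin genes, 43 kept their direction and stayed past the threshold under every alternative tried and 55 did not under at least 1. Among 1284 recomputed values 1059 kept the call, 223 lost the threshold and 2 changed sign, both for Tspan9 with the mean of its probe sets: -0.61 (adjusted p = 0.16) in CD41+ against CD41- cells and -0.15 (adjusted p = 0.80) in CD144+ against CD144- cells of day 3.5. With a robust variance prior without a trend, the number of genes called went to 4 of 8 for CD41+ against VEGF-R2+ cells, 3 of 6 for CD144+ cells of day 3.5 against VEGF-R2+ cells, 1 of 6 between the CD144+ populations and 2 of 6 for CD144+ of day 3.5 against CD41+ cells. For the differences between sorts it went to 3 of 5 (CD41 minus VEGF-R2), 3 of 6 (CD144 of day 3.5 minus VEGF-R2), 1 of 6 (CD144 of day 6.5 minus VEGF-R2) and 0 of 1 (CD144 of day 6.5 minus day 3.5, 7 genes at an unadjusted p under 0.05 by limma in the fit with all arrays). No share of all probe sets was counted at that unadjusted threshold. With only the arrays of the compared groups, counts were 7 against 11 for CD144+ against CD144- cells of day 6.5, 5 against 8 for CD41+ against VEGF-R2+ cells, 3 against 6 between the CD144+ populations, 2 against 6 for CD144+ of day 3.5 against CD41+ cells, and 0 against 1 for the CD144 sorts of day 6.5 and 3.5. With only positive populations, the counts were 2 between the CD144+ populations and 3 for CD144+ of day 3.5 against CD41+ cells. Fewer arrays leave fewer residual degrees of freedom. Replicates of positive cells also agreed less than those of negative cells (Spearman 0.872 to 0.895 against 0.945 to 0.955). The fit over all arrays uses one spread per probe set for both, so its SE between positive populations may be too small. The part of each in these counts was not tested.

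With 1 array left out, the ranges were 7 to 10 (VEGF-R2 sort), 13 to 13 (CD41), 8 to 9 and 9 to 10 (CD144, days 3.5 and 6.5), 5 to 9, 3 to 6 and 7 to 9 (CD41+, CD144+ of day 3.5 and CD144+ of day 6.5, each against VEGF-R2+), 0 to 7 (CD144+ of day 6.5 against day 3.5), 1 to 5 (CD144+ of day 3.5 against CD41+), 3 to 5, 3 to 6, 4 to 6 and 0 to 2 (the differences between sorts, in the order above) and 16 to 18 (F test). CD41+ against VEGF-R2+ cells gave 5 without VEGF-R2+ replicate 1 or CD41+ replicate 1, and CD144+ of day 3.5 against VEGF-R2+ cells gave 3 without VEGF-R2+ replicate 1. The lone array of a population is then assumed to vary like the others.

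No shared effect of the replicate number was seen: over 28 pairs of populations the correlation of same-numbered deviations was -0.05 to 0.05, none over 0.1. This cannot show whether same-numbered samples came from the same experiment. With a replicate block the counts were 10 for the VEGF-R2 sort, 15 for CD41, 10 and 12 for the CD144 sorts, 8, 6 and 11 against VEGF-R2+ cells, 7 and 6 for the last 2 comparisons, 5, 5, 6 and 1 for the differences between sorts and 17 by the F test. Replicate arrays had Spearman correlations of 0.872 to 0.895 in positive and 0.945 to 0.955 in negative cells, and signals near the offset limit the fold changes of dim probe sets.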
